A study of Rattus norvegicus with 15 samples.

Results

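The alpha-class glutathione S-transferases of rat liver were read through 3 probe sets of the array, chosen because the annotation names no gene for them outside Gsta2, Gsta3, Gsta4 and Gsta5. These are 3 of the 31042 probe sets that are not control probe sets, and 4 of the 14874 genes that the annotation names. Gsta3 (Entrez gene 494500, probe set 1371089_at) and Gsta4 (Entrez gene 300850, probe set 1372297_at) each had a probe set of their own. Gsta2 (Entrez gene 24422) and Gsta5 (Entrez gene 494499) shared 1 probe set, 1368180_s_at, so their signals cannot be told apart and are given as a joint value. Names in this family have changed over time: Gsta3 was earlier called Gsta5 or Yc2, Gsta5 was called Gsta2, and Gsta2 was called Gsta1. Values are therefore tied to the Entrez number. The family was chosen by a measured value of these same arrays, the higher Gsta3 level with daidzein than with control. The other comparisons reuse either its daidzein or its control arrays, so Gsta3 is described here without a test in every comparison.

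Cytosolic glutathione transferases join the thiol of glutathione to electrophilic compounds, which are then exported from the cell and excreted as mercapturates. The alpha class is abundant in hepatocytes, where its enzymes also reduce lipid hydroperoxides and bind hydrophobic ligands. In the rat, the subunit encoded by Gsta3 is known for its activity towards the epoxide of aflatoxin and for low levels in untreated adult male liver, and genes of the class are known targets of the transcription factor Nrf2 through antioxidant response elements. Gsta4 encodes a subunit with high activity towards 4-hydroxynonenal, a product of lipid peroxidation.

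The RNA came from the livers of 15 male Sprague-Dawley rats, 4 weeks old at the start, which had 5 days of adaptation and then 14 days on 1 of 3 diets. The control diet was free of isoflavone, and the other diets contained 2 g/kg daidzein or 2 g/kg genistein, with 5 rats per diet and 1 array per rat. Casein at 200 g/kg was the protein and palm oil at 100 g/kg the fat of all 3 diets, control included. Daidzein and genistein are soy isoflavones that differ by 1 hydroxyl group, which genistein carries, and the study set their effects on hepatic lipid metabolism side by side. The titles call the arrays biological replicates, and their descriptions carry other numbers in part, so arrays are named by diet and title number. Levels are given on a log2 scale that was rebuilt from the deposited values, with an arbitrary zero, and the level of one probe set is not comparable with that of another.

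Pearson correlations between arrays lay between 0.931 and 0.969 across the 18625 probe sets tested. With 5 arrays per diet, precision is limited by their number. Of the markers fixed for hepatocytes, 7 of 8 had a probe set of their own on the array, and those 7 stayed above the filter level of -0.30 in all 15 arrays. Their mean level, relative to the control mean, ranged from -0.066 to 0.045 in control, from -0.047 to 0.024 in daidzein and from -0.023 to 0.072 in genistein arrays. Of the 7, Alb had a change of 0 in every comparison after quantile normalization, so it added nothing to differences between diets. In bulk liver RNA, fewer cells of a type and less RNA per cell cannot be told apart.

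The stretches of DNA before the start sites of 3 members are shown because genes of the class are known to be regulated through antioxidant response elements. They come from RefSeq on the GRCr8 assembly, whose table held an entry for each of the 4 members, with 2 start sites for Gsta3. Each stretch is the 250 bases before the start, written 5′ to 3′ on the gene's strand. Capitals mark matches, on either strand, to the core of the antioxidant response element (TGACNNNGC) or to the core of the Ah receptor element (GCGTG).
Gsta3, first start site, chr9:31154739-31154988, + strand: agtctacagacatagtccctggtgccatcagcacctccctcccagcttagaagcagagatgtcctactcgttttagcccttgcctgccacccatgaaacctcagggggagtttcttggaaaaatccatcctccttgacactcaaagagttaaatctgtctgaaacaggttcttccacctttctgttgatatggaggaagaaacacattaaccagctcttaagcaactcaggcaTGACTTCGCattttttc
Gsta2, chr8:88077093-88077342, - strand: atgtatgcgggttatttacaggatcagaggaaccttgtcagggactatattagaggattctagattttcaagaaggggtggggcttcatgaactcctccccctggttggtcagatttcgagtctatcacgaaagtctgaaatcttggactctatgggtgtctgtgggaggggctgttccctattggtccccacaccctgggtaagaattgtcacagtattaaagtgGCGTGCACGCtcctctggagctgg
Gsta4, chr8:87947015-87947264, + strand: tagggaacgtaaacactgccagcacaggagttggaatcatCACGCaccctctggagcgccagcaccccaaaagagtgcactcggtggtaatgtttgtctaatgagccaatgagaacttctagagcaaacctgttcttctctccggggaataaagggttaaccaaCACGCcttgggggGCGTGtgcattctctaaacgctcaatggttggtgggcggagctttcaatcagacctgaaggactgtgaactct

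In windows of 300 bases, which add the 50 bases after the start, the first Gsta3 window held 1 antioxidant core, TGACTTCGC, beginning 17 bases before the start, and no Ah receptor core. The window at the other Gsta3 start held no antioxidant core and 1 Ah receptor core. Gsta2 held 1 antioxidant core on the opposite strand, beginning at base 37 after the start, and 2 Ah receptor cores, which lie side by side 24 and 19 bases before it. Gsta4 held 3 Ah receptor cores, beginning 210, 86 and 73 bases before its start, and no antioxidant core, and Gsta5 held neither. Of 33469 promoter windows in the table, 12.1% held the antioxidant core and 29.7% the Ah receptor core, so a match of either kind is common. No match of one motif overlapped a match of the other in the 9 windows of the alpha class. Sites further from the start than these windows were not searched, so a window without a match does not mean that the gene lacks such an element. A match is a description of these letters only, and the array data do not show what binds there.

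The members lie in 2 groups on GRCr8. On chromosome 8, Gsta4, Gsta5 and Gsta2 follow each other with no other protein-coding gene of the RefSeq table between them, and on chromosome 9 Gsta3 is the direct neighbour of Gsta1, an alpha-class gene outside the 4 members. The first Gsta3 window and the Gsta1 window were 58.3% identical in a global alignment, against 47.4% to 51.7% for the other pairs among the 36 pairs of windows of the class. The Gsta1 window also held 1 antioxidant core, TGACTTTGC, beginning at base 31 after its start.

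Gsta3 showed the widest spread between diets of the 3 probe sets. Its level was -1.13, -0.061, -1.55, -0.95 and -0.25 in control 1 to 5. In daidzein 1 to 5 it was 3.12, 2.30, 2.33, 2.78 and 2.71. In genistein 1 to 5 it was 0.64, 1.71, 1.87, -0.25 and 0.67. All 5 daidzein arrays therefore lay above all 10 others. In genistein, 4 arrays lay above every control array and below every daidzein array, while genistein 4 lay within the control range. As rebuilt intensities before normalization, counted in the smallest whole-number steps of each array, Gsta3 was at 12.35 to 35.0 steps in control, 29.6 to 165 steps in genistein and 175 to 369 steps in daidzein. The control signal was thus near the low end of the array: 3 of 5 control arrays fell below the filter level, and no daidzein or genistein array did.

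**Figure D1:**
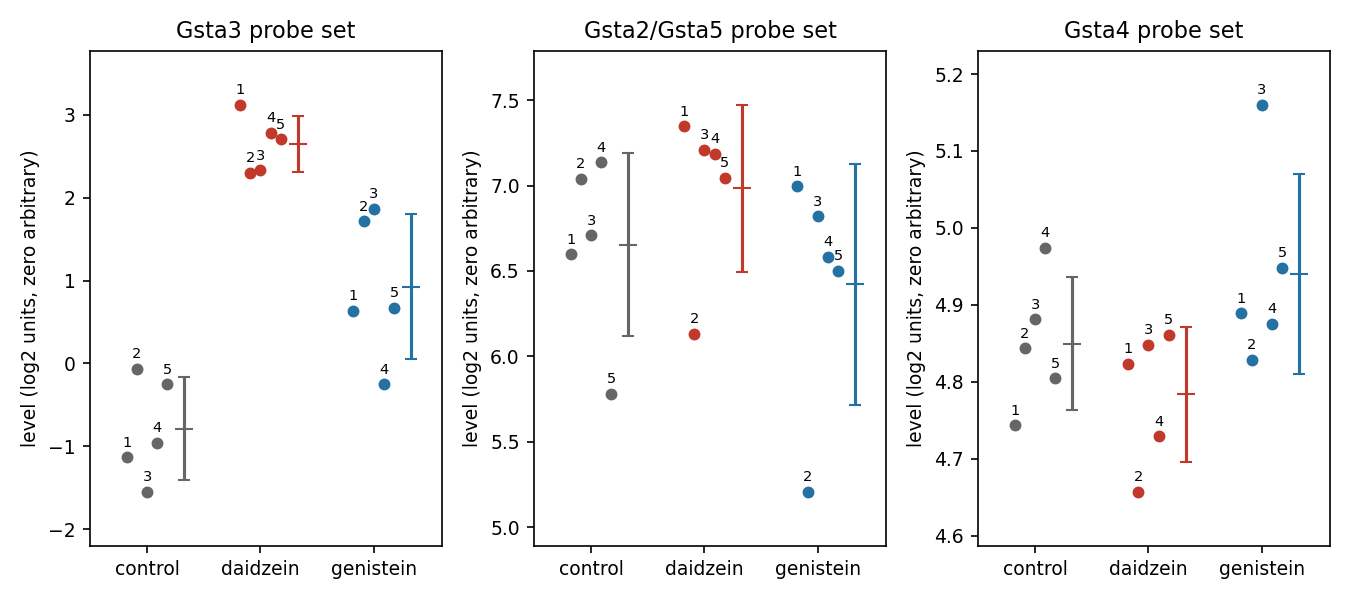
Level in log2 units (vertical axis, zero arbitrary and a different range in each panel) of the Gsta3, joint Gsta2 and Gsta5, and Gsta4 probe sets in control (grey), daidzein (red) and genistein (blue) arrays. Each point is 1 array with its title number, and the bar beside it gives the mean ± SD of 5 arrays. The Gsta3 points of daidzein stand above all others and those of genistein lie mostly in between, while the diets overlap in the other panels.

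Against control, daidzein gave a Gsta3 mean of 2.65 ± 0.34 against -0.79 ± 0.62 (SD, n = 5 each), a difference of 3.44 log2 units (SE 0.38) or 10.8-fold. The lowest daidzein array stood 2.36 log2 units above the highest control array. No other probe set among the 18625 tested had a larger rise with daidzein. Over all tested probe sets, 3 (0.0161%) passed a limma adjusted p under 0.05 with daidzein. This is the comparison that drew attention to Gsta3, so no test of it is given. Nothing is read from its rank or the separation of its arrays. Daidzein lay above control without overlap in 1 of the 3 member probe sets, Gsta3, as in 0.940% of all tested probe sets. The fold depended on the constant that the intensities carry: with 16 steps added to every rebuilt intensity it was 6.66, and with 64 added 3.55.

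Genistein gave a Gsta3 mean of 0.93 ± 0.87 (SD, n = 5), which was 1.72 log2 units (SE 0.38) or 3.29-fold above control. All 5 genistein arrays lay above the control mean, and 0.1% of the tested probe sets had a larger rise. Leaving out 1 array gave differences from 1.48, without genistein 3, to 2.02, without genistein 4, the array at the control level. With 16 steps added the fold was 2.35, and with 64 added 1.64. The control arrays of this comparison are those in which the gene was noticed, so no test is given and nothing is read from the rank of Gsta3. Of the other 2 member probe sets 0 passed a limma adjusted p under 0.05, which 0.322% of the tested probe sets did, and 0 had an unadjusted p under 0.05, which 11.0% did. No member separated all 5 genistein from all 5 control arrays, which 2.57% of the tested probe sets did.

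At the same dose and time, Gsta3 was lower with genistein than with daidzein by 1.72 log2 units (SE 0.38), which is 3.29-fold. All 5 genistein arrays lay below all 5 daidzein arrays, with a gap of 0.43 log2 units between the nearest. Gsta3 was the 1 of 3 member probe sets for which this held, as it did for 1.06% of the tested probe sets. The daidzein arrays of this comparison are those in which the gene was noticed, so no test is given and nothing is read from this separation. The order of the diet means was daidzein, genistein, control, and both steps were of about the same size on this scale. With 64 steps added they were 1.12 between genistein and daidzein and 0.71 between genistein and control, so their relative size depended on that constant.

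**Figure D2:**
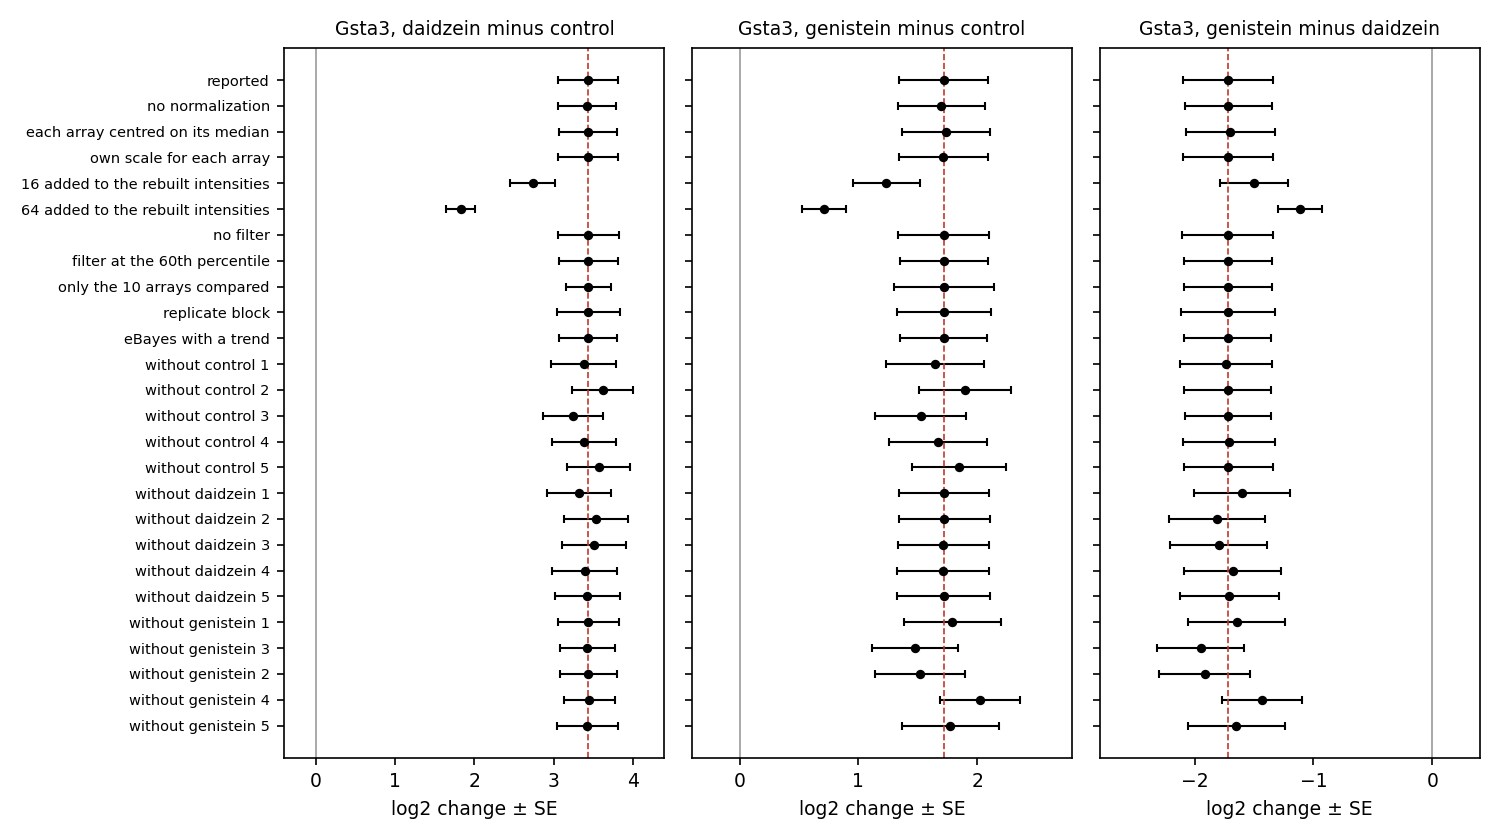
Difference in Gsta3 level between diets (log2 units, horizontal axis, 1 panel per comparison) as reported and under 25 alternatives, named on the vertical axis. Points are limma estimates and bars ± SE; the dashed line is the reported value and the grey line 0. In each panel the estimate moved most when 64 steps were added to the rebuilt intensities, where daidzein minus control went from 3.44 to 1.83, and none crossed 0.

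The joint probe set of Gsta2 and Gsta5, which encode classical alpha subunits of rat liver, did not separate the diets. It was at 6.60, 7.04, 6.71, 7.14 and 5.78 in control 1 to 5. In daidzein 1 to 5 it was 7.35, 6.13, 7.21, 7.19 and 7.05, and in genistein 1 to 5 it was 7.00, 5.21, 6.82, 6.58 and 6.50. In each diet 1 array lay well below the other 4, namely control 5, daidzein 2 and genistein 2, and the groups overlapped in every comparison. The means were 6.65 ± 0.54 in control, 6.98 ± 0.49 in daidzein and 6.42 ± 0.71 in genistein (SD, n = 5). Genistein minus control was -0.23 (95% confidence interval -0.96 to 0.49, limma adjusted p = 0.873), and its sign rested on genistein 2, without which it was 0.071. Genistein minus daidzein was -0.56 (interval -1.29 to 0.16, limma adjusted p = 0.677), or -0.26 without genistein 2. Daidzein minus control was 0.33, or 0.11 without control 5 and 0.54 without daidzein 2.

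Gsta4 varied least. Its level was 4.74, 4.84, 4.88, 4.97 and 4.80 in control 1 to 5. It was 4.82, 4.66, 4.85, 4.73 and 4.86 in daidzein 1 to 5, and 4.89, 4.83, 5.16, 4.88 and 4.95 in genistein 1 to 5. The groups overlapped in every comparison, and genistein 3 was the highest array. The means were 4.85 ± 0.086 in control, 4.78 ± 0.087 in daidzein and 4.94 ± 0.13 in genistein (SD, n = 5). Genistein minus control was 0.091 (95% confidence interval -0.075 to 0.26, limma adjusted p = 0.744), or 0.036 without genistein 3. Genistein minus daidzein was 0.16 (interval -0.0095 to 0.32, limma adjusted p = 0.573), with all 5 genistein arrays above the daidzein mean, and daidzein minus control was -0.066. Neither this probe set nor the joint one passed between the isoflavones, where 0.113% of the tested probe sets did. By unadjusted limma p under 0.05 the counts were 0 of these 2 and 9.37% of all tested.

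**Figure D3:**
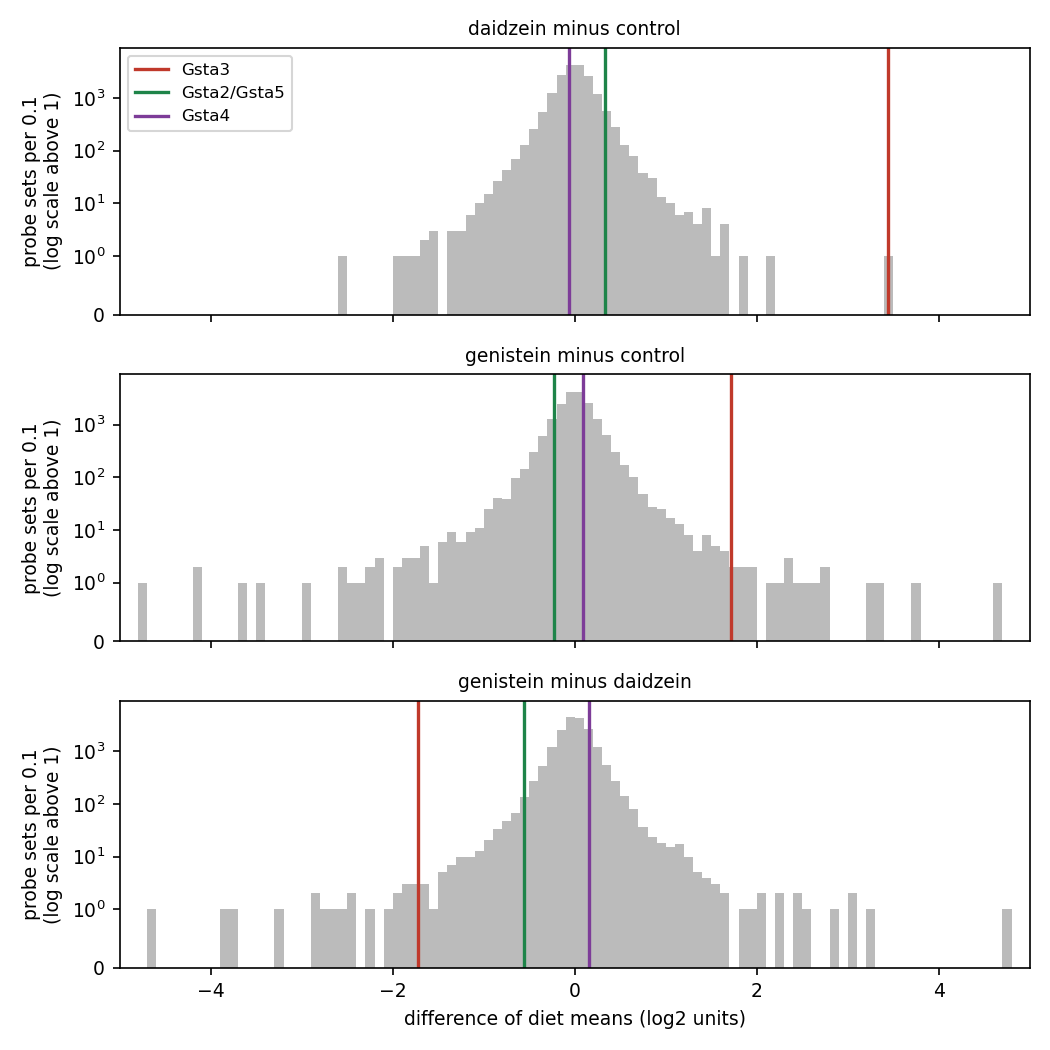
Number of tested probe sets (vertical axis, log scale above 1) by difference of diet means in bins of 0.1 log2 units (horizontal axis), for the 3 comparisons, with vertical lines at the 3 alpha-class probe sets. The Gsta3 line stands alone at 3.44 in daidzein minus control and in the thin tails at 1.72 and -1.72 in the others. Gsta3 was chosen by the first of these values, so nothing is read from its place. The Gsta4 lines lie near 0, and the line of the joint probe set lies at 0.33, -0.23 and -0.56.

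The array carries 2 further alpha-class probe sets that name another gene alone. Gsta1, the gene next to Gsta3 (Entrez gene 24421), whose older names include Gsta3 and Gsta5, ranged from 6.50 to 7.12 in control, 6.93 to 7.12 in daidzein and 6.81 to 7.40 in genistein arrays. Its difference was 0.40 for genistein minus control (SE 0.12, limma adjusted p = 0.209), 0.16 for genistein minus daidzein (SE 0.12, adjusted p = 0.766) and 0.24 for daidzein minus control, so its largest mean was in genistein, where that of Gsta3 was in daidzein. Genistein 4 was the lowest genistein array for both genes. Gsta3l1, a Gsta3-like locus, lay below the filter level in all 15 arrays and was not tested. Alpha-class transcripts resemble each other, and how far a probe set also reads a relative was not tested, since probe sequences were not used here.

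Among the members, levels across the 15 arrays had little in common. Pearson's r was 0.155 between Gsta3 and the joint Gsta2 and Gsta5 probe set, -0.138 between Gsta3 and Gsta4, and 0.208 between Gsta4 and the joint probe set. After the diet mean was taken off each array these were -0.181, 0.263 and 0.578. The arrays share 3 diets, and these values are descriptions with no test.

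The level most like that of Gsta3, over 15 arrays and among 14242 probe sets that name 1 other gene, was that of Ephx1, the microsomal epoxide hydrolase (r = 0.961). Ephx1 ranged from 5.77 to 6.16 in control, 6.07 to 6.62 in genistein and 6.55 to 6.99 in daidzein arrays, so that daidzein lay above control without overlap and genistein came between. Genistein 4 was again the lowest genistein array. Next came Tmco1 (r = 0.867), Nom1 (0.858), Gemin8 (0.843), Ddx21 (0.832) and Nsf (0.822). With diet means taken off, the likest was Aldh1a1, a retinal dehydrogenase (r = 0.885), followed by Smim19 (0.875), Mt4 (0.858), Sec14l1 (0.843), Pbrm1 (0.840) and Ncoa1 (0.822). Aldh1a1 ranged from 1.92 to 3.46 in control, 3.60 to 4.37 in daidzein and 3.48 to 4.93 in genistein arrays, so unlike Gsta3 it reached its highest levels in genistein. These are the top of a very long ranking over few arrays, and they are given as a description.

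**Figure D4:**
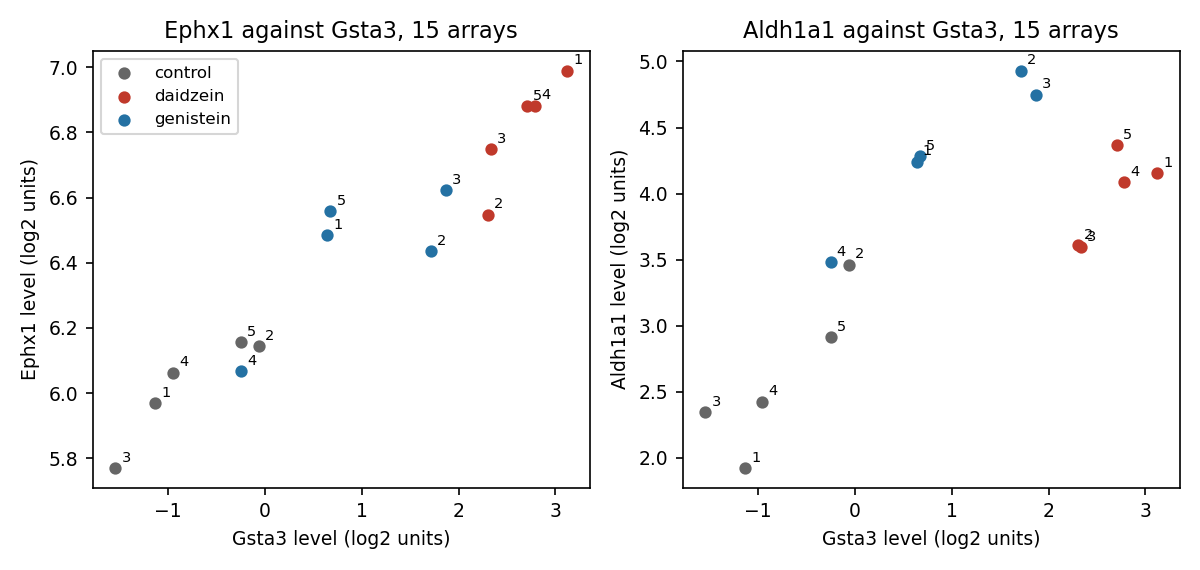
Level of Ephx1 (left) and Aldh1a1 (right) against the level of Gsta3, both in log2 units, in 15 arrays coloured by diet and numbered by title. Ephx1 follows Gsta3 from control through genistein to daidzein (r = 0.961); Aldh1a1 follows it within diets (r = 0.885 after the diet means are taken off), with genistein from 3.48 to 4.93 overlapping daidzein from 3.60 to 4.37.

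For the joint Gsta2 and Gsta5 probe set the likest levels were those of Dspp (r = 0.835), Pdlim2 (0.816), Fam124a (0.758), Dag1 (0.753), Ncbp1 (0.752) and Izumo4 (0.746), and with diet means taken off Kifap3 (0.894), Osbpl1a (0.850), Dpp7 (0.832), Ncbp1 (0.828), Cmtm7 (0.818) and Dspp (0.811). For Gsta4 they were Lyve1 (r = 0.866), Coq10a (0.857), Rbms3 (0.855), Rnase4 (0.852), Wdr13 (0.851) and Col1a2 (0.849), and with diet means taken off Exosc8 (0.901), Hpcal1 (0.893), Tnfsf12 (0.893), Syne4 (0.884), Pnpla7 (0.883) and Nicn1 (0.869). Of these, Lyve1 is a marker of sinusoidal endothelium and Col1a2 a collagen gene of stellate cells. The mean level of the 4 endothelial markers tested ranged from -0.17 to 0.23 in control, -0.18 to 0.0015 in daidzein and -0.20 to 0.21 in genistein arrays. That of the 6 stellate markers ranged from -0.12 to 0.076 in control, -0.17 to -0.022 in daidzein and -0.00064 to 0.17 in genistein arrays. Their part in the Gsta4 values was not tested.

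Alpha-class enzymes are richer near the central vein, so markers of hepatocyte zones were set beside the members. The mean level of the 8 pericentral markers ranged from -0.093 to 0.14 in control, -0.29 to -0.12 in daidzein and -0.035 to 0.27 in genistein arrays. The daidzein arrays, where Gsta3 was highest, thus lay below all control arrays in this list. With daidzein, 1 of the 8 had a change above 0, and the median was -0.23. Between the isoflavones 1 of the 8 passed, where 0.113% of all tested probe sets did. This was Oat, ornithine aminotransferase, higher with genistein than with daidzein (log2 change 0.99, SE 0.16, limma adjusted p = 0.0328). In that comparison 7 of the 8 had a change above 0, and Glul had one of -0.062. The 7 periportal markers ranged from -0.13 to 0.20 in control, -0.17 to 0.13 in daidzein and -0.34 to 0.0028 in genistein arrays. The 5 markers of Kupffer cells and leukocytes ranged from -0.21 to 0.25 in control, -0.54 to -0.080 in daidzein and -0.33 to 0.22 in genistein arrays. The 2 cholangiocyte markers tested ranged from -0.14 to 0.19 in control, -0.27 to 0.33 in daidzein and -0.18 to 0.22 in genistein arrays. The part of these shifts in the alpha-class values was not tested.

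Of 72 genes in 5 lists, which cover the other transferase classes, glutathione synthesis and recycling, glutathione peroxidases, conjugate export with mercapturate formation, and regulators of the alpha class, 61 were tested. With genistein against control 0 of 61 passed (limma, 6 with an unadjusted p under 0.05) and the median change was 0.0030. With daidzein against control 0 passed (limma, 12 with an unadjusted p under 0.05) and the median was 0.072. Between genistein and daidzein 2 were lower and none higher, 18 had an unadjusted p under 0.05, and the median was -0.11. Over all tested probe sets 0.322%, 0.0161% and 0.113% passed in the same order, and of the 21 that passed between the isoflavones 6 were higher. An unadjusted p under 0.05 was reached by 11.0%, 8.25% and 9.37% of all tested, and the median change was within 0.001 of 0 in each comparison.

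Both genes that passed belong to the 18 tested transferases of other classes. Gstm1, a mu-class transferase abundant in liver, was lower with genistein than with daidzein (log2 change -0.49, SE 0.067, limma adjusted p = 0.0140). Gstm3, of the same class, was lower too (log2 change -1.43, SE 0.22, limma adjusted p = 0.0192). Gstm2, also of the mu class, had a change of -0.77 (adjusted p = 0.0569) and Gpx1, a selenium-dependent peroxidase, one of 0.25 (adjusted p = 0.101). Against control, the lowest p with genistein were those of Gstm3 (-0.94, limma adjusted p = 0.0874), Gstm1 (-0.28, 0.0905), Abcc2, the canalicular exporter of glutathione conjugates (0.50, 0.142), and Gsto1, an omega-class transferase (0.44, 0.180). With daidzein against control they were those of the transporter Abcc6 (-0.30, limma adjusted p = 0.268), Gstm2 (0.55, 0.346), Gstp1, the pi-class transferase (0.46, 0.346), and Gstt1, of the theta class (0.63, 0.382). The median change of the 18 transferases of other classes was 0.21 with daidzein and 0.026 with genistein against control, and -0.16 between genistein and daidzein.

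The 12 tested genes of glutathione synthesis and recycling had medians of 0.051 with daidzein, -0.051 with genistein and -0.21 between genistein and daidzein, where 1 of 12 had a change above 0. Gclm, the modifier subunit of the rate-limiting ligase, was 0.40 higher with daidzein than control (adjusted p = 0.501 by limma) and changed by -0.025 with genistein. Gclc, the catalytic subunit of the same ligase, changed by 0.077 with daidzein and -0.21 with genistein against control. The 6 peroxidases had medians of -0.067, -0.0097 and 0.047, and the 11 genes of conjugate export and mercapturate formation of 0.082, -0.028 and -0.065, in the same order of comparisons. The 14 regulators had medians of 0.024, 0.076 and -0.022, and none passed. Among them the transcript of Nrf2 itself, Nfe2l2, had a change of -0.11 (SE 0.23) with daidzein and 0.0017 (SE 0.23) with genistein against control, and that of its inhibitor Keap1 0.10 (SE 0.080) and -0.13 (SE 0.080). Transcript levels of these factors say nothing of their protein or its activity. Gclm, Gclc, Nfe2l2 and Keap1 were named for their role and after their values had been seen.

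**Figure D5:**
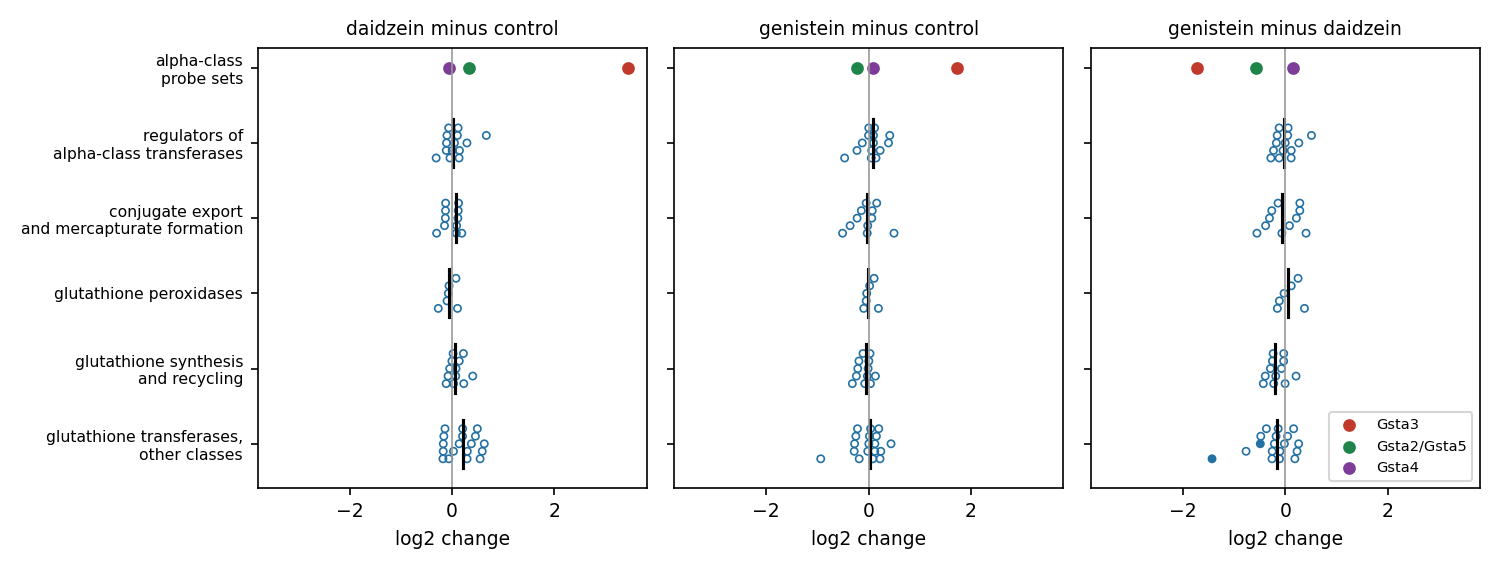
Log2 change (horizontal axis) of each tested gene of 5 glutathione lists (open circles; filled where the limma adjusted p was under 0.05) in the 3 comparisons, with the list median as a black bar and the 3 alpha-class probe sets in the top row, drawn without marking calls. The Gsta3 points at 3.44, 1.72 and -1.72 lie outside the spread of every list, and the 2 filled circles are Gstm1 and Gstm3. Gsta3 was chosen by its level with daidzein against control, so nothing is read from its place.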

How the data were processed

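Biotin-labelled liver RNA of 15 rats was hybridised to 1-channel Affymetrix rat arrays, per the labels' protocols. The values the authors deposited are 1 score per probe set and array (31099 probe sets), which judging by the values is a standardized log signal; background correction and summarisation are not given in the sources used here, and the fixed design had allowed for this unit. The scale was rebuilt: a scale was found for each array that turns the exponentials into whole-number steps, as 499 of 499 gaps tested did within 0.001. Scores were multiplied by the mean scale (2.60 log2 units per deposited unit, range 2.54 to 2.79) and quantile normalized (limma 3.58.1, R 4.3.3). The reason to normalize was that array medians differed by over 0.1 deposited units before this scaling. Of the rest after dropping 57 control probe sets, the lowest 40 percent by mean level were not tested. All 3 alpha-class probe sets passed. A 3-group model over all 15 arrays (lmFit, eBayes, 12 residual and 2.58 prior degrees of freedom) gave two-sided adjusted p-values (Benjamini-Hochberg, 18625 probe sets, threshold 0.05). SE and intervals come from this fit and SD from the 5 arrays. Of these steps only the limma fit was tested on simulated data, built on values already normalized and filtered. The rebuilt scale, the normalization and the filter were not tested in this way. Promoters were aligned with Biopython 1.88.

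Members, lists and tests were chosen with earlier results of these data known. Genes were named by rule: every member probe set, the 4 genes of lowest p in the glutathione lists per comparison, and the 6 likest genes of each member, with 1 probe set per gene (highest mean level). Gsta1, Gsta3l1, Gclc, Gclm, Nfe2l2 and Keap1 were added for their relation to the members, and Alb for its change of 0. Oat was added because it passed among the pericentral markers, and Glul because it went the other way. Symbols came from the array annotation, updated by Entrez number (20764 of 20832 probe sets with 1 symbol matched; 436 had several and 9831 none). Of 15 pairs of same-numbered arrays of different diets, 1 had residuals correlated above 0.1 (r from -0.163 to 0.109), so numbers were not taken to pair arrays. Alternatives covered normalization, background, filter, arrays in the fit, a replicate block, an eBayes trend and leaving out each array.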

Additional observations from a re-analysis of the deposited data

Results flagged for a closer look

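The joint Gsta2 and Gsta5 probe set had a low array that stood apart from its diet in daidzein and in genistein. Its level in daidzein 2 was 6.13, with the nearest other daidzein array at 7.05, a gap of 0.751 of the group's range. In genistein 2 it was 5.21, with the nearest at 6.50, a gap of 0.723 of the range. The limit for 5 arrays is 0.71, and chance passes it in about 1 of 20 groups; 9 groups were looked at. In control the lowest array, control 5 at 5.78, had a ratio of 0.604, below the limit. None of the 6 groups of Gsta3 and Gsta4 arrays had a ratio past the limit.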

How the results depend on the processing

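Each of 12 values (3 counts of probe sets called and 9 differences of members) was recomputed under 25 alternatives, and 254 of these 300 values were labelled the same. A count had to stay within 1.5 times. A difference had to keep its direction and its side of the threshold or, where described without a test, move by less than 1 SD. For this label alone the Gsta3 difference between genistein and control was judged by its side of the threshold. Among the members, the Gsta3 difference between daidzein and control was 2.74 with 16 and 1.83 with 64 added to the rebuilt intensities, since an added constant shrinks the fold of low values. The Gsta3 difference between genistein and control stayed at 1.72 with a filter at the 60th percentile and with an eBayes trend, and leaving out 1 array moved it from 1.48 to 2.02; no test of it is read, since its control arrays are those in which the gene was noticed. The joint Gsta2 and Gsta5 difference between genistein and control moved from -0.45 to 0.071 when 1 array was left out.

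Counts called, given for genistein minus control, genistein minus daidzein and daidzein minus control, were 60, 21 and 3. With medians centred the first 2 were 34 and 9. With 16 added the second was 35, and with 64 added all were 123, 80 and 9. Without a filter the first 2 were 14 and 3, and at the 60th percentile all were 124, 67 and 7. With the 10 arrays compared the first 2 were 0 (limma, 1896 with an unadjusted p under 0.05) and 2, and with a trend all were 120, 57 and 8. The replicate block gave 17 and 2 for the first 2 counts, and it changed no call of the other 2 member probe sets. Leaving out 1 array gave 5 (without control 3) to 203 (without genistein 4), 3 to 136 (without genistein 4) and 2 to 8 (without daidzein 1). The first count moved by over 1.5 times without any 1 array other than control 5 or genistein 5, and the second without control 5 (33), daidzein 2 (7), 3 (3), 4 (4) or 5 (4), or genistein 1 (5), 2 (3) or 4 (136). Of the 21 called between the isoflavones 6 were higher, against 2 of 14 without normalization, 1 of 9 with medians centred, 12 of 35 with 16 added and 37 of 80 with 64 added. Of those called with daidzein against control 3 of 3 were higher, against 3 of 4 with 16 added, 7 of 9 with 64 added, 6 of 8 with a trend, 4 of 7 at the 60th percentile and 2 of 8 without daidzein 1, where most calls were lower. The cause of these shifts in counts was not tested. Signal near background limits Gsta3 in control, where fold changes depend on the constant added.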
